A study of Homo sapiens with 4 samples.

Results

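The genes described here encode the subunits of the SIN3/HDAC corepressor complex (20 genes) and proteins of methylation on lysine 4 of histone H3 (17 genes). The latter are enzymes that add or remove methyl groups there, with further subunits of the methyltransferase complexes. Genes of both groups were taken by name and function, with earlier results of these data known. All 37 were found by symbol among 64449 genes annotated on the GRCh37 chromosomes, of which 20163 are protein-coding. Each gene was scored by whether a listed region of reduced H3K4me3 lay within 3 kb of its gene start or of any of its annotated transcription start sites (TSS). Native ChIP-Seq for H3K4me3 was carried out in MDA-MB-231, an established human triple-negative breast cancer line, on chromatin digested with micrococcal nuclease. The groups were untreated cells, cells given 1 μM Tat-SID and cells given 2.5 μM Tat-SID, with 1 library each, plus 1 library of input DNA, and the peptide treatment is given as 3 days. Tat-SID is a decoy peptide that joins the SIN3 interaction domain of the repressor MAD to a nuclear import sequence of Tat and competes for binding to SIN3. The authors set both treated libraries against the same untreated library, and cells given a scrambled peptide were not part of this comparison. The lists they deposited give, for each region called as reduced or increased, its chromosome, start and end, with no read number, fold or FDR for a region. The size of a change, the level of H3K4me3 in any one library, the depth behind a call and the markers of the cell line could therefore not be read here. With 1 library per condition no difference between conditions was tested.

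SIN3 proteins bind no DNA themselves and act as scaffolds that bring histone deacetylases to the DNA-binding factors they hold. One such partner is PF1 (PHF12), which links SIN3 to a module with MRG15 (MORF4L1), EMSY and H3K4 demethylases of the KDM5 family. H3K4me3 marks the start sites of active genes and most CpG-rich promoters, is laid down by the SETD1 and KMT2 enzymes with their shared WDR5, ASH2L, RBBP5 and DPY30 core, and is removed by KDM5 enzymes.

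At 2.5 μM Tat-SID, 7 of the 37 genes had a region of reduced H3K4me3 within 3 kb of a TSS. These were the scaffold SIN3A, the SIN3 subunits SAP30, ARID4A and ARID4B, the H3K4 demethylases KDM5A and KDM1A, and the H3K4 methyltransferase KMT2C. The share of 18.9% had an exact Clopper-Pearson 95% confidence interval of 7.96% to 35.2%, which covers counting error over genes only, and 10.8% of all protein-coding genes were called by the same rule (2178 of 20163, 10.4% to 11.2%). The interval of the 37 genes takes in this background share, so the count does not set the list apart from other genes. At 1 μM, SAP30 was the only one of the 37 genes with a region (2.7%, 0.0684% to 14.2%), where 0.675% of all protein-coding genes had one (136 of 20163, 0.566% to 0.797%). None of the 3 regions with increased H3K4me3 at 2.5 μM lay within 3 kb of a TSS of the 37 genes, and the share among all protein-coding genes was 0% (0 of 20163, which allows up to 0.0183%). The SIN3/HDAC genes and the H3K4 enzymes gave similar shares at 2.5 μM, with 4 of 20 (20%, 5.73% to 43.7%) and 3 of 17 (17.6%, 3.8% to 43.4%).

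All 7 regions covered the gene start itself, so none of the 7 calls rested on the 3 kb margin, and no other gene of the list came near it. The closest genes outside the limit were SUDS3, SAP18 and ASH2L, with the nearest reduced region 16.7 kb, 27.9 kb and 37.6 kb from a TSS. Over the 30 genes without a region this distance had a median of 560 kb and reached 4387 kb at SAP130. It was between 100 and 1000 kb for 17 of them and beyond 1000 kb for 8, as the plot of distances by role shows. The same distance was not taken over other protein-coding genes without a region, so nothing particular to these genes is read from it.

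**Figure D1:**
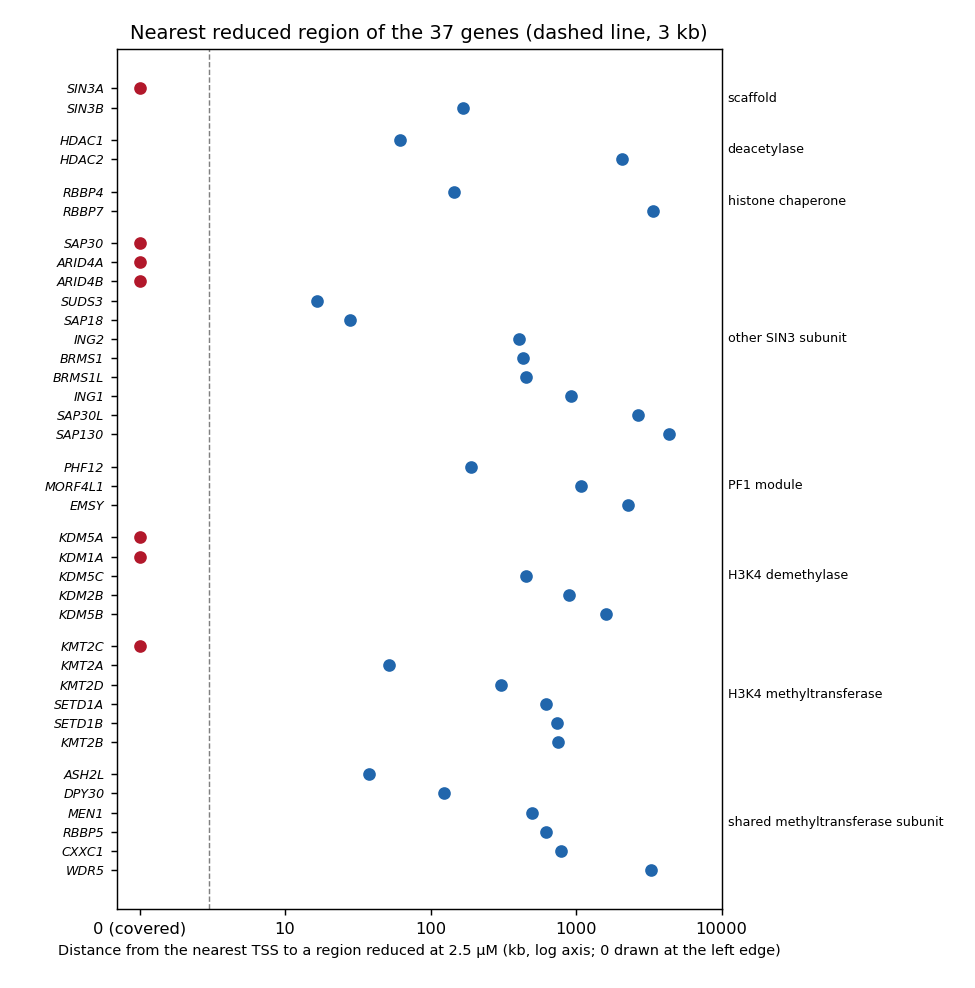
Distance in kb (log axis) from the nearest annotated TSS of each of the 37 genes to the nearest region reduced at 2.5 μM, grouped by role. Red points are the 7 genes whose TSS a region covered (0 kb, drawn at the left edge), blue points the 30 others, which lie between 16.7 kb (SUDS3) and 4387 kb (SAP130), and the dashed line is the 3 kb limit.

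The bases just upstream of the 7 gene starts are shown because each region covered them, together with those of SIN3B, the paralogue of SIN3A with no region. They run 5′ to 3′ on the strand of the gene in GRCh37 and end at the base before the gene start, the outermost annotated TSS. Up to 150 bases are given, fewer where an untranslated exon of a protein-coding neighbour begins. This is so at KDM5A, where the nearest TSS of CCDC77 lies 28 bp away on the other strand. Capitals mark the GC-box GGGCGG or its reverse complement CCGCCC, a sequence bound by SP1-family factors.
SIN3A, chr15:75748184-75748333, minus strand: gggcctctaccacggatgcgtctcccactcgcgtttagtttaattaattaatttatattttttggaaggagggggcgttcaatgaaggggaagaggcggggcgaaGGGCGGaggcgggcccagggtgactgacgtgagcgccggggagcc
SIN3B, chr19:16940059-16940208, plus strand: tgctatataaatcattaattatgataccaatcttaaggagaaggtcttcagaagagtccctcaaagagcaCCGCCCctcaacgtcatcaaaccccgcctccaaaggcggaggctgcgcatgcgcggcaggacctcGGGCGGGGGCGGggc
SAP30, chr4:174290970-174291119, plus strand: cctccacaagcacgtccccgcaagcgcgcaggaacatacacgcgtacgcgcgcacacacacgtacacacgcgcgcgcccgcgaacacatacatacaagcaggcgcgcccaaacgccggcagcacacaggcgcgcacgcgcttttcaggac
ARID4A, chr14:58765072-58765221, plus strand: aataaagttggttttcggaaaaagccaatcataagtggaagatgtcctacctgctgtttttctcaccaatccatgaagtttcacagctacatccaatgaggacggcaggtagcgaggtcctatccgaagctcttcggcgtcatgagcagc
ARID4B, chr1:235491535-235491684, minus strand: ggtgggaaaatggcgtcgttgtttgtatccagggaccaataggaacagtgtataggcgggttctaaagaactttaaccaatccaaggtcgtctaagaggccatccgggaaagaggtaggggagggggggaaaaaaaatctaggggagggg
KDM5A, chr12:498487-498513, minus strand: cgtttcctgcaggGGGCGGagggattt
KDM1A, chr1:23345786-23345935, plus strand: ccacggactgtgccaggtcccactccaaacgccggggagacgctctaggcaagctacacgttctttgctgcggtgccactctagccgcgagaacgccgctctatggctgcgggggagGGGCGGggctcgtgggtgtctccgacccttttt
KMT2C, chr7:152133730-152133879, minus strand: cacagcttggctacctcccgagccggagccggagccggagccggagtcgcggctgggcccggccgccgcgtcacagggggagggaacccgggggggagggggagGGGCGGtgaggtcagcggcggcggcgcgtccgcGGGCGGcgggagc
Within the 250 bases upstream of the gene start, SIN3A, SAP30, KDM5A, KDM1A and KMT2C held a GC-box on either strand and ARID4A and ARID4B did not. The match at SAP30 lies farther upstream than the bases printed, which run past a TSS of the noncoding RNA SAP30-DT on the other strand. The share of 5 of 7 (71.4%, 29% to 96.3%) compares with 17 of the 30 genes without a region (56.7%, 37.4% to 74.5%) and with 48.7% of all protein-coding genes (48% to 49.4%). Among protein-coding genes with a region at 2.5 μM the share was 54.9% (1195 of 2178, 52.7% to 57%), inside the interval of the 7 genes. The E-box CACGTG, which reads the same on both strands and is the sequence bound by MAD and MYC with their partner MAX, was in none of the 7 stretches. It was in those of RBBP4 and KMT2D among the 30 others, and in 7.17% of all protein-coding genes (6.81% to 7.53%). A match in this window is a description of the sequence and not evidence of binding.

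SIN3A, one of the scaffolds that the peptide binds, carried the longest of the 7 regions. It lay at chr15:75741651-75749499 and measured 7849 bp, longer than 89.6% of the 2063 regions reduced at 2.5 μM. The region extended 1316 bp before and 6532 bp past the gene start and held 13 of the 19 annotated TSS of SIN3A. These TSS fell into a group near the gene start and a group near the TSS of the canonical transcript, 4152 bp downstream, and the region reached across both. Of the canonical transcript it covered exon 1 and part of intron 1, without the start codon. Its GC content of 58.8% was higher than in 2052 of the 2063 regions, whose median was 45.1%. The only other gene with a start in the region was a long noncoding RNA on the same strand, ENSG00000276744. The nearest other region reduced at 2.5 μM was 181 kb away, and at 1 μM the nearest region was 4510 kb from a TSS of SIN3A.

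SIN3B, the second scaffold, had no region within 3 kb at either dose. Its nearest region at 2.5 μM lay 167 kb away, at chr19:16769151-16773249, within 3 kb of a TSS of SMIM7 and of TMEM38A. The 1 μM list had no region on chromosome 19. The catalytic subunits HDAC1 and HDAC2 had none either, with distances at 2.5 μM of 61.2 kb and 2074 kb. For the histone-binding chaperones RBBP4 and RBBP7, which hold histones H3 and H4 for the deacetylases, the distances were 145 kb and 3393 kb.

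Among the other SIN3 subunits 3 of 11 had a region at 2.5 μM (27.3%, 6.02% to 61%), beside the background of 10.8%. SAP30, a small subunit that strengthens the contact between SIN3 and the deacetylases, was called at both doses. Its 2.5 μM region lay at chr4:174288101-174295299, measured 7199 bp and was longer than 84.9% of the list. The region called at 1 μM, chr4:174288051-174295549, measured 7499 bp and was longer than 31.9% of the 141 regions reduced at 1 μM, whose median was 8599 bp. The 2.5 μM region lay wholly inside the 1 μM region and made up 96% of it, with starts 50 bp and ends 250 bp apart. Both doses were compared with the same untreated library, so the 2 calls are not independent. SAP30 is also the shortest of the 7 genes, at 7.56 kb, and the 2.5 μM region covered both its TSS, its start codon and exons 1 to 3 of 4. The nearest TSS of the long noncoding RNA SAP30-DT on the other strand was 132 bp from the start of SAP30.

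ARID4A and ARID4B, paralogous DNA-binding subunits of which ARID4A is known as a partner of the retinoblastoma protein, were both called at 2.5 μM. The ARID4A region lay at chr14:58762501-58767699 and measured 5199 bp, reaching 2721 bp upstream and 2477 bp downstream of its start. The ARID4B region lay at chr1:235488301-235495249 and measured 6949 bp, reaching 3715 bp upstream and 3233 bp downstream. Less of these regions lay downstream of the gene start, 47.7% at ARID4A and 46.5% at ARID4B, than of the other 5, where it was 58.1% (SAP30) to 83.2% (SIN3A). Each held exons 1 and 2 of the canonical transcript with the start codon, and 7 of 11 and 8 of 13 TSS. In both, protein-coding genes start on the other strand inside the region. These were ARMH4, 365 bp from the ARID4A start, and GGPS1, which encodes an enzyme of isoprenoid synthesis. The nearest TSS of GGPS1 lay 180 bp from the ARID4B start. The lncRNA PSMA3-AS1 started 370 bp from ARID4A, and an unnamed protein-coding gene, ENSG00000285053, 351 bp from ARID4B.

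The remaining SIN3 subunits lay farther from any region at 2.5 μM. SUDS3, which helps hold the deacetylases in the complex, was 16.7 kb from a region within 3 kb of a TSS of TAOK3. SAP18 was 27.9 kb from one at MRPL57 and SKA3. The PHD finger proteins ING2 and ING1, readers of H3K4me3, were at 403 kb and 930 kb. BRMS1, a suppressor of breast cancer metastasis, and its paralogue BRMS1L were at 429 kb and 450 kb, SAP30L at 2669 kb and SAP130 at 4387 kb. The PF1 module, which contacts SIN3 through PHF12, had 0 of 3 genes with a region at 2.5 μM. With 3 genes the interval allows a share of up to 70.8% and so takes in the background of 10.8%. PHF12, which encodes PF1, was 190 kb from a region, MORF4L1 1074 kb and EMSY, a partner of BRCA2, 2272 kb.

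**Figure D2:**
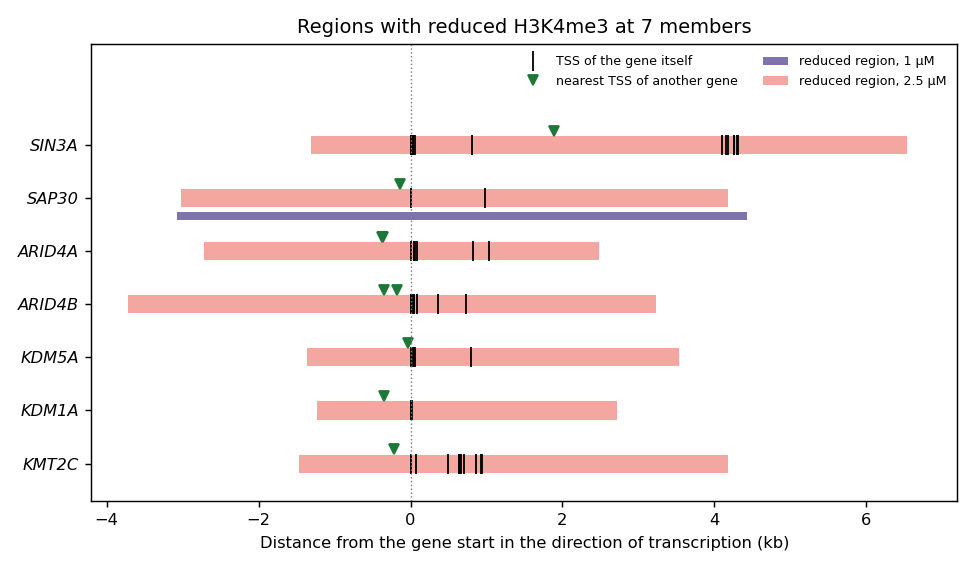
Extent of the reduced H3K4me3 regions at the 7 genes, in kb from the gene start in the direction of transcription (pink, 2.5 μM; purple, 1 μM, SAP30 only). Black ticks are TSS of the gene itself inside the region and green triangles the nearest TSS of another gene. Each 2.5 μM region spans the gene start, and at all but SIN3A a TSS on the other strand lies within 370 bp upstream of it.

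Of the 5 genes grouped here as H3K4 demethylases, KDM5A and KDM1A had a region at 2.5 μM (40%, 5.27% to 85.3%). The interval takes in the background of 10.8%. KDM5A, which removes methyl groups from di- and trimethylated H3K4, had one at chr12:494951-499849 of 4899 bp, with 1363 bp upstream and 3535 bp downstream of the TSS that begins the gene. It held exons 1 and 2 with the start codon and 5 of 11 TSS, and its GC content of 41.5% was the lowest of the 7. The nearest TSS of CCDC77 on the other strand lay 28 bp from the start of KDM5A, so the region cannot be given to 1 of these genes. KDM1A (LSD1), a flavin-dependent enzyme that acts on mono- and dimethylated H3K4 in the CoREST complex, had the shortest of the 7 regions. It lay at chr1:23344701-23348649 and measured 3949 bp, longer than 23.4% of the list, and held exon 1 and 3 of 13 TSS. Its neighbour TEX46 started 343 bp away on the other strand. KDM5C, KDM2B and KDM5B had no region within 3 kb, with distances of 454 kb, 902 kb and 1598 kb. KDM5B, an H3K4 demethylase often overexpressed in breast cancer, has 36 annotated TSS, and none of them met the rule at either dose.

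Of the 6 H3K4 methyltransferases KMT2C was called at 2.5 μM (16.7%, 0.421% to 64.1%), beside the background of 10.8%. KMT2C encodes a large enzyme that monomethylates H3K4 at enhancers together with KMT2D, and is the longest of the 37 genes, at 302 kb. The region lay at chr7:152129551-152135199 and measured 5649 bp, the median length of the 7, with 1470 bp before and 4178 bp after the gene start. It held exon 1 of 59 with the start codon and 12 of 50 TSS, and its GC content was 51.4%. The nearest TSS of the pseudogene FABP5P3 lay 220 bp away on the other strand. The other 5 methyltransferases lay at 51.4 kb (KMT2A), 305 kb (KMT2D), 621 kb (SETD1A), 739 kb (SETD1B) and 753 kb (KMT2B) from a region, including SETD1A and SETD1B, which make most H3K4me3 in human cells. None of the 6 genes for further subunits of the methyltransferase complexes was called (0%). The interval allows up to 45.9% and so takes in the background of 10.8%. ASH2L was nearest, at 37.6 kb from a region at BAG4 and LSM1. DPY30 was at 124 kb, menin (MEN1) at 500 kb, RBBP5 at 625 kb, the CpG-binding SETD1 subunit CXXC1 at 790 kb and WDR5 at 3286 kb.

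The paralogues are set side by side as a description, beside the 10.8% of single protein-coding genes that were called, and nothing particular to these groups is read from it. One member had a region at 2.5 μM and the rest none in SIN3A and SIN3B, SAP30 and SAP30L, KDM5A with KDM5B and KDM5C, and KMT2C and KMT2D. ARID4A and ARID4B were the pair in which both were called. In HDAC1 and HDAC2, RBBP4 and RBBP7, BRMS1 and BRMS1L, ING1 and ING2, KMT2A and KMT2B, and SETD1A and SETD1B neither was. A gene without a listed region may still have lost H3K4me3 below the threshold of the call, and differences between paralogues were not tested.

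The 7 regions had a median length of 5649 bp, from 3949 bp at KDM1A to 7849 bp at SIN3A. All regions reduced at 2.5 μM had a median of 4949 bp (199 to 27349 bp), and the 1760 of them near a protein-coding TSS one of 5099 bp. The regions of ARID4B, SAP30 and SIN3A were longer than 82.5% to 89.6% of the list, while those of KDM1A and KDM5A fell below its median. Their median GC content was 46.8%, where that of the regions near protein-coding genes was 45.7%. Each region stood alone, with the next region on the list 29.9 kb away at SAP30, 48.5 kb at ARID4A and 181 to 799 kb at the other 5.

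**Figure D3:**
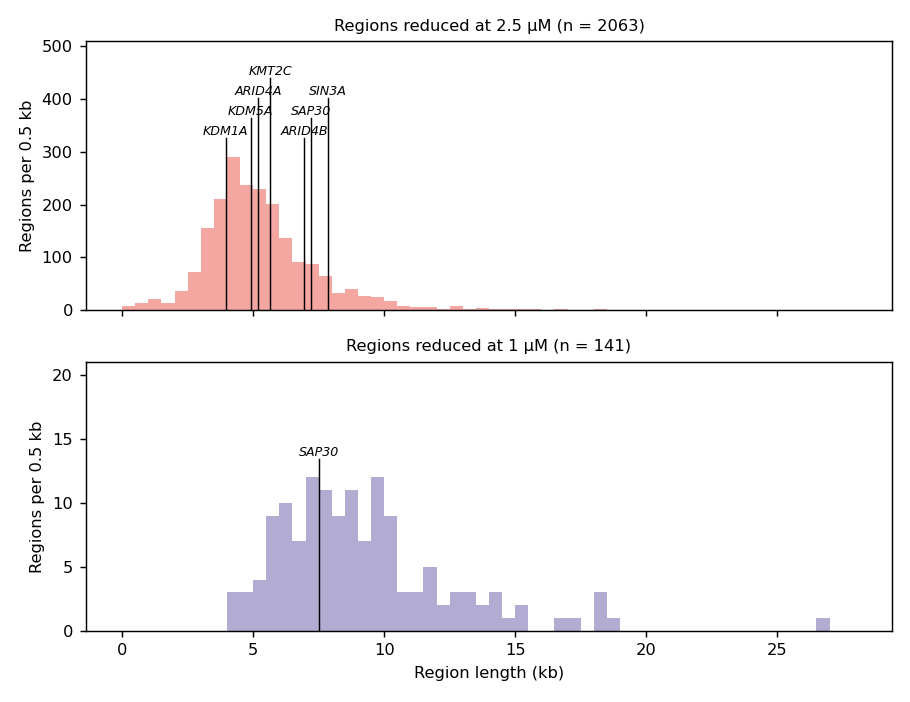
Number of regions per 500 bp of length among the 2063 regions reduced at 2.5 μM (top) and the 141 reduced at 1 μM (bottom), with the regions at the named genes marked by black lines. The 7 marked lengths lie between 3949 and 7849 bp, on both sides of the 2.5 μM median of 4949 bp, and SAP30 at 1 μM (7499 bp) lies below the 1 μM median of 8599 bp.

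The promoters of the 37 genes are richer in CpG than those of other genes, a property that the choice of genes did not use. In the window of 1 kb on each side of the gene start, the CpG ratio (CpG dinucleotides observed over those expected from the C and G content) had a median of 0.774 over the 37 genes and 0.611 over 20144 protein-coding genes with sequence. Among protein-coding genes the share with a region at 2.5 μM was 4.19%, 6.27%, 12.9% and 19.8% from the lowest to the highest quartile of this ratio. Of the 37 genes, 22 fell in the highest quartile, above 0.739, and 6 of these had a region. Another 11 fell in the next quartile, where ARID4A had the only region, and the 4 in the 2 lower quartiles had none. With CpG promoters defined as those above 50% GC and above a ratio of 0.6, 5 of 30 genes with such a promoter had a region (16.7%, 5.64% to 34.7%), beside 14.8% of the 9436 protein-coding genes with one (14.1% to 15.6%). SAP30 and KDM5A fell just below this GC limit, at 47.6% and 49.8%. At its canonical TSS, 985 bp from the gene start, SAP30 had a GC content of 60.4% and met the definition, while KDM5A did not.

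**Figure D4:**
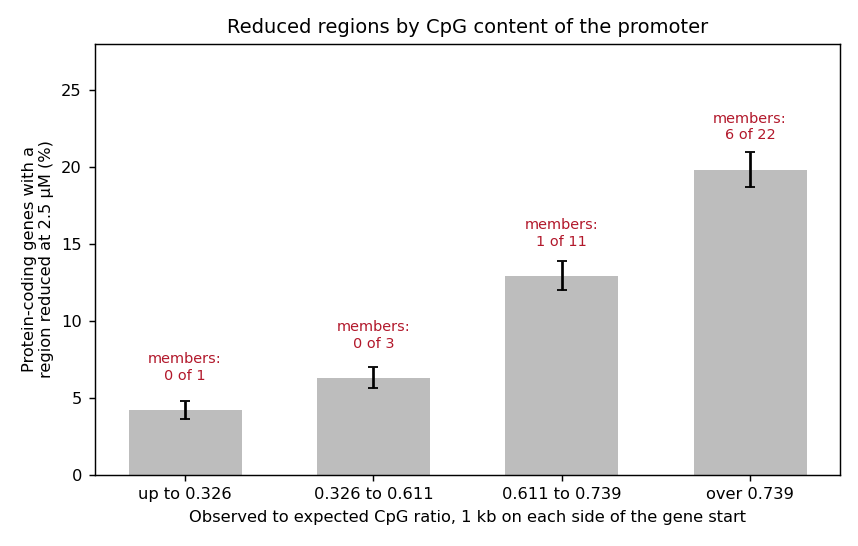
Share of protein-coding genes with a region of reduced H3K4me3 at 2.5 μM by quartile of the promoter CpG ratio. Bars give the percentage with exact 95% confidence intervals, which rises from 4.19% to 19.8%, and the red text gives the number of the 37 genes with a region out of those in each quartile (6 of 22 in the highest).

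Within the list the 7 genes with a region and the 30 without overlapped in composition. The CpG ratio ran from 0.732 to 1.04 with a median of 0.791 in the former, and from 0.215 to 0.896 with a median of 0.749 in the latter. KMT2C had the highest ratio of the 37. HDAC2 had the lowest at its outermost gene start, but its canonical TSS lies 40160 bp from there and has a ratio of 0.807. With the canonical TSS used for every gene the medians were 0.805 and 0.772. The GC content had medians of 60.6% and 56.5%, from 47.6% to 64.9% and from 45.5% to 73.3%.

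**Figure D5:**
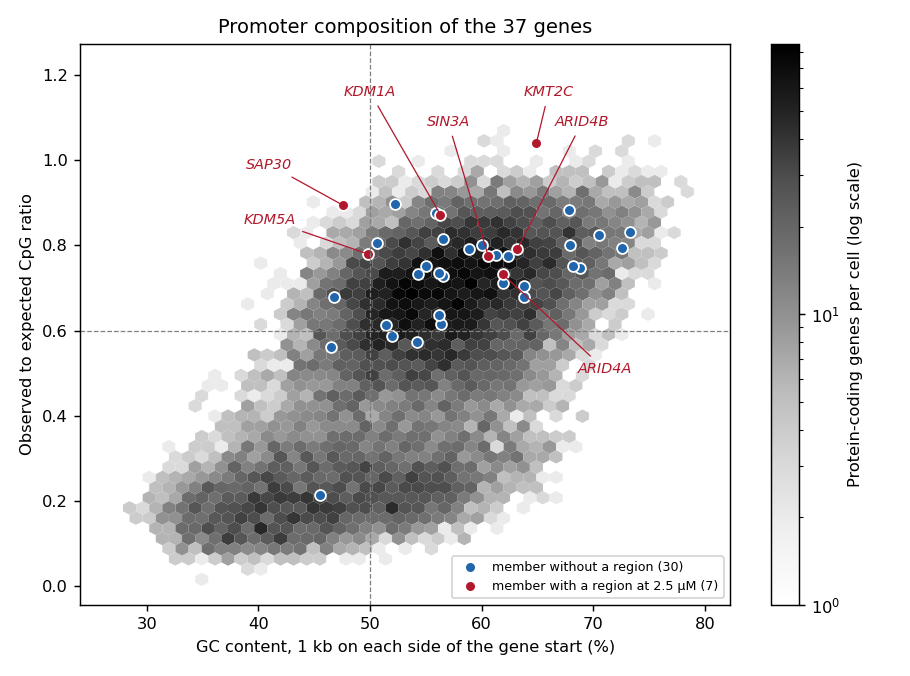
GC content (%) against the observed to expected CpG ratio 1 kb on each side of the gene start. Grey cells count protein-coding genes (log scale), red points are the 7 genes with a region at 2.5 μM and blue points the 30 without, and dashed lines mark 50% GC and a ratio of 0.6. The red points span ratios of 0.732 to 1.04 and lie among the blue ones, except KMT2C, whose ratio is above all of them.

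The genes with a region were longer on median than those without, with ranges that overlapped. The median length was 86.5 kb for the 7 genes and 40 kb for the 30, and 5 of the 14 genes in the longest quartile of all protein-coding genes (over 71.4 kb) had a region. Of the 2 others with a region, KDM1A (64.2 kb) falls in the next quartile and SAP30 in the shortest. In all protein-coding genes, 17.2% of the longest quartile and 5.44% of the shortest had a region at 2.5 μM. Of the 22 genes with more than 10 annotated TSS positions 6 had a region, where 16.8% of all such protein-coding genes did (15.7% to 18%).

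Starts of other genes on the opposite strand were a feature of 6 of the 7 promoters, all but SIN3A. This feature was looked at after the neighbours of the 7 genes had been seen, and is given as a description. An opposite-strand TSS of any gene lay within 1 kb of the gene start in 21 of the 37 genes, and 6 of these had a region. The other 15 had such a neighbour and no region, among them RBBP4, PHF12, MORF4L1, SETD1A, SETD1B, WDR5 and DPY30. Of the 16 genes with no opposite-strand start that close, SIN3A had the only region. In all protein-coding genes the shares at 2.5 μM were 18.7% with such a start (1149 of 6143, 17.7% to 19.7%) and 7.34% without (1029 of 14020, 6.91% to 7.78%). With protein-coding neighbours only, 4 of 9 genes of the list with one had a region (ARID4A, ARID4B, KDM5A and KDM1A) and 3 of 28 without one, beside 20.3% and 8.99% of all protein-coding genes. H3K4me3 over such a shared promoter cannot be told apart between the 2 genes from the positions alone.

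Of 49 other genes of the same pathways, also chosen with earlier results known, 9 had a region at 2.5 μM (18.4%, 8.76% to 32%), beside the background of 10.8%. Among 8 further SIN3 partners these were OGT, the O-GlcNAc transferase, the MRG15 paralogue MORF4L2 and the corepressor TLE1. Among 11 further genes grouped here with the H3K4 methyltransferase complexes they were KDM6A, the H3K27 demethylase of the KMT2C and KMT2D complexes, and KMT2E. KMT2E was placed in this group although it is not an established subunit of these complexes. Among 22 genes of other class I HDAC complexes they were NCOR1 and TBL1XR1 of the NCoR complex, GATAD2B of NuRD and PHF21A, a CoREST partner of KDM1A. None of 8 other genes grouped here as H3K4 methyltransferases or demethylases had one (which allows up to 36.9%). KMT2E was the only one of the 49 with a region at 1 μM (2.04%, 0.0517% to 10.9%), beside 0.675% of all protein-coding genes. Its region, chr7:104649301-104658949 of 9649 bp, had the same start and end at both doses and lay 67.9 kb from the gene start over 10 of its 20 TSS. The region of TBL1XR1 also lay at internal TSS, 28.7 kb from the gene start, while the other 7 of these genes were covered at the gene start like the 7 genes of the list.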

How the data were processed

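The authors aligned single-end reads to GRCh37 (hg19) with Bowtie (version 1.0.0) after FastQC (version 0.10.0), used MACS2 (version 2.1.0) for display, and called changed regions with SICER-df, which joins neighbouring windows into islands and compares treated with untreated reads over them. The FDR threshold in the names of the lists is stricter than that in their methods. Their results and a figure legend also state a stricter threshold than their methods for reduced H3K4me3. The deposited files hold region positions only (chromosome, start and end) and no measured value, with 0 columns of other samples, so depth per library is unknown here. Positions are printed from 1, and 0 regions ended beyond their chromosome. Genes and TSS came from GENCODE release 44 on GRCh37. Regions were assigned to genes within 3 kb of any TSS, and shares got exact Clopper-Pearson 95% intervals, which cover counting error only, in Python 3.11.15 with scipy 1.17.1. The assignment was tested on simulated regions at known distances. Alternatives were other TSS windows, other TSS sets, minimum lengths, merged regions and other backgrounds. All members, their paralogue groups and the 49 context genes with a region are named. The genes and lists were chosen with earlier results of these data known.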

Additional observations from a re-analysis of the deposited data

How the results depend on the processing

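The same 7 genes had a region at 2.5 μM with TSS windows of 1 kb and 10 kb, with the TSS base covered, with the gene start or basic transcripts only, with regions of at least 1000 bp and with regions within 3000 bp merged, and SAP30 kept its region at 1 μM under each of these. Only regions of at least the median length of each list changed the counts. Then 5 genes remained at 2.5 μM (SIN3A, SAP30, ARID4A, ARID4B and KMT2C), 1 of the H3K4 enzymes and 0 genes at 1 μM, because fewer regions were used, and the background fell to 6.12% at 2.5 μM and 0.327% at 1 μM. The background of 10.8% at 2.5 μM became 11.6% with the 10 kb window, 9.51% with the gene start only, 5.31% over all annotated genes and 14.8% over genes with a CpG promoter, or 15.0% with CpG promoters taken at the canonical TSS, an alternative chosen after seeing the data. The background of 0.675% at 1 μM became 0.496% with the gene start only. SAP30 also counted as shared by both doses when 50% of its 1 μM region had to be covered.

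Stricter FDR limits could not be applied, since no FDR is listed for a region. Length gives the extent of a region and was not shown to follow its FDR. The setting with longer regions therefore does not show how the calls depend on FDR. No paired analysis was possible because there was 1 library of each kind. Depth, the size of a change and the spread between cultures are unknown, both doses share 1 untreated library, and a gene without a region is not shown to have kept its H3K4me3.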

Other observations

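The 37 genes lie on 18 chromosomes, and those with a region at 2.5 μM are spread over 6 of them. Chromosome 4, where 19.4% of protein-coding genes had a region (16.7% to 22.4%), holds SAP30 with a region and ING2 without. Chromosomes 6 (18.8%) and 5 (18%) hold HDAC2 and SAP30L, chromosome 13 (14%) SAP18 and ING1, and chromosome 2 (13.6%) SAP130 and DPY30, all without a region. Chromosome 14 (17%) holds ARID4A with one and BRMS1L without, and chromosome 12 (12.7%) holds KDM5A with one and SUDS3, KDM2B, KMT2D and SETD1B without. On chromosome 1 (12.3%) ARID4B and KDM1A had a region while HDAC1, RBBP4, KDM5B and RBBP5 did not. SIN3A and KMT2C lie on chromosomes with shares below the 10.8% of all protein-coding genes, at 9.56% on chromosome 15 and 9.97% on chromosome 7. The lowest shares among chromosomes that hold genes of the list were 2.67% on chromosome 16, with SETD1A, and 2.91% on chromosome 19, with SIN3B and KMT2B, none of which had a region. Chromosome 11 (8.28%) holds BRMS1, EMSY, KMT2A and MEN1 and chromosome X (5.75%) RBBP7 and KDM5C, again without a region. The part of chromosome copy number or depth in these shares was not tested.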
